A study of Homo sapiens with 9 samples.

Results

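The genes described here are 10 members of the immediate early class outside the AP-1 and DUSP families: EGR1, EGR2, EGR3, EGR4, NR4A1, NR4A2, NR4A3, IER2, IER3 and KLF6. They were chosen by symbol, and all 10 were found among the 62700 genes of the count table. Expression was measured by sequencing polyA-selected RNA of 293T cells, a transformed human embryonic kidney line, in 9 libraries. The cells were reverse transfected with Fugene 6 and a plasmid holding no insert (empty vector, 3 libraries), HA-CIC::DUX4 (3 libraries) or HA-CIC(ex20)::NUTM1(ex6), called CIC::NUTM1 below (3 libraries). Each transfection used 300000 cells, each replicate had a transfection day of its own, and RNA was taken after about 48 hours. The labels record no serum starvation or stimulus. P-values therefore measure the spread between transfections of 1 cell line. The plasmids were introduced transiently, and the share of cells that took them up is not given in the sources used here. Bulk RNA does not tell a change in every cell from a larger change in fewer cells.

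Library totals lay between 16970771 and 33655445 counts, and mitochondrial transcripts took 1.2% to 2.14% of them. All 8 transcripts fixed as markers of HEK293 cells had counts in every library, with a summed level of 1333 to 1535 CPM in empty vector, 1245 to 1289 CPM with CIC::DUX4 and 1253 to 1380 CPM with CIC::NUTM1. Of these 8, 1 was called higher and 2 lower with CIC::DUX4 against empty vector (edgeR, adjusted p under 0.05). With CIC::NUTM1, 2 were called higher and 3 lower than in empty vector, and 2 higher and 2 lower than with CIC::DUX4. Called higher and lower over all tested genes were 6.96% and 1.27%, 11.5% and 3.83%, and 4.97% and 1.64%. CPM here stands for the usual scaling of counts to library size, after TMM normalisation, which allows for differences in library composition. Of the HEK293 markers, NEFM went from 567 to 360 (CIC::DUX4) and 347 CPM (CIC::NUTM1), and NEFL from 197 to 143 and 166 CPM. Called higher were KRT8 with CIC::DUX4 (10.1 to 24.9 CPM), and VIM (573 to 710 CPM) and LHX1 (14.0 to 18.7 CPM) with CIC::NUTM1. Markers of leukocytes, endothelium, fibroblasts and liver (8 genes) summed to 31.6 to 35.3, 27.3 to 34.1 and 26.3 to 31.7 CPM in empty vector, CIC::DUX4 and CIC::NUTM1. Nearly all of it came from COL1A1. Without COL1A1 the sums were 0.200 to 0.322, 0.910 to 2.78 and 1.24 to 3.30 CPM, with 2 to 5, 6 to 8 and 5 to 6 of the 8 genes detected. CD3E, which marks T cells, was at 0 in all libraries but CIC::DUX4 replicate 1. PTPRC, a leukocyte marker, was called higher with both fusions, at means of 0.0195, 0.412 and 0.909 CPM in empty vector, CIC::DUX4 and CIC::NUTM1 (edgeR adjusted p = 0.0242 and 0.00118). The SD of PTPRC with CIC::DUX4, 0.436 CPM, exceeded its mean. DCN, a fibroblast marker, was called higher with CIC::NUTM1 (0.0390 to 0.751 CPM, edgeR adjusted p = 0.00533) and COL1A1 lower (33.5 to 26.3 CPM, edgeR adjusted p = 0.0434). Only 3 of the 8 genes were tested. PTPRC and DCN had 2 and 4 counts over the empty vector libraries, so they passed the abundance filter through fusion libraries. Against empty vector, a call higher was thus nearly the only one open to them. The part of these markers in the results below was not tested.

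Immediate early genes are transcribed within minutes of a stimulus without new protein synthesis, and their transcripts decay quickly. Growth factor signals reach them through RAS and ERK, which phosphorylate ELK factors bound with SRF at CArG boxes, while cAMP and calcium signals act through CREB at cAMP response elements (CRE). CIC is a transcriptional repressor that ERK signalling relieves, and its fusions with DUX4 or NUTM1, found in sarcomas, activate CIC target genes. EGR and KLF6 proteins are zinc finger transcription factors, and the NR4A proteins are orphan nuclear receptors. IER2 and IER3 are small proteins named for their immediate early response.

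The promoter windows of 3 members that rose with CIC::NUTM1 are printed to show where letters read by SRF and CREB stand. The sequences come from RefSeq (GRCh38.p14), 5′ to 3′, all on the plus strand, starting 250 bases before the transcription start. Capitals mark matches, on either strand, to the CRE core TGACG or to the CArG box. Only called members with a single window and a match in it are printed, so these 3 were picked for holding one. Of the other members that rose, NR4A1 has 2 windows, NR4A2 has none, and KLF6 had no CRE core or CArG box.
EGR1 (chr5:138465229-138465478): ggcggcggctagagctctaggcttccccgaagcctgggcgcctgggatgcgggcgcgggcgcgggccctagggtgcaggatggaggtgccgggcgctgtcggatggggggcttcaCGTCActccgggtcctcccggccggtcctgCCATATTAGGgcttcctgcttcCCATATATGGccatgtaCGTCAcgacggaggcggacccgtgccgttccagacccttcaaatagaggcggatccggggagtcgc
NR4A3 (chr9:99821635-99821854): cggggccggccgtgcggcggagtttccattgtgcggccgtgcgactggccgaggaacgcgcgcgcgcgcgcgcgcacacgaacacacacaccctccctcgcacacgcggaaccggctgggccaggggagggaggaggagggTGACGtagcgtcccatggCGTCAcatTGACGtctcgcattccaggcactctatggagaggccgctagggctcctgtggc
IER2 (chr19:13150161-13150410): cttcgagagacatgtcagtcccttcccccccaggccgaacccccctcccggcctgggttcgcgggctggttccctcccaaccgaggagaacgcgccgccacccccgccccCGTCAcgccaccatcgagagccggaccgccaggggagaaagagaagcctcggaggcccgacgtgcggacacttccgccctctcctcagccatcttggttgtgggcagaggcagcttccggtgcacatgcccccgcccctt
EGR1 held 2 CArG boxes, at bases -105 to -96 and -83 to -74 from the start, between a CRE core at -135 to -131 and another at -66 to -62. NR4A3 held 4 CRE cores and no CArG box. Of these, 3 lie within the printed bases, at -109 to -105, -91 to -87 and -83 to -79, and the other lies at -25 to -21. A single CRE core was found for IER2, at -140 to -136.

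The RefSeq table held windows from 250 bases before to 50 after a start for 7 of the 10 members (10 windows, since EGR2 has 3 and NR4A1 has 2). CArG boxes were found in 2 of the 10 windows, those of EGR1 and of 1 EGR2 start, against 1.30% of 34943 human windows of that length. The CRE core, searched on both strands, was in 5 of the 10 windows and in 24.5% of all windows. The longer element TGACGTCA, which contains it, was in no member window and in 1.84% of all. No member window held the CIC octamer TGAATGAA (1.65% of all windows) or TGAATGGA (1.02%). KLF6 held the letters GCGGGGGCG, a form of the site read by EGR proteins, at -65 to -57, and 5.06% of all windows did. The searches for GCGTGGGCG, the NR4A element AAAGGTCA, the AP-1 letters TGANTCA and TATAAA found nothing in the member windows and matched 0.796%, 1.22%, 7.72% and 11.6% of all windows. Neither NR4A1 window held any motif searched. A match is a description of letters and does not show binding.

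**Figure D1:**
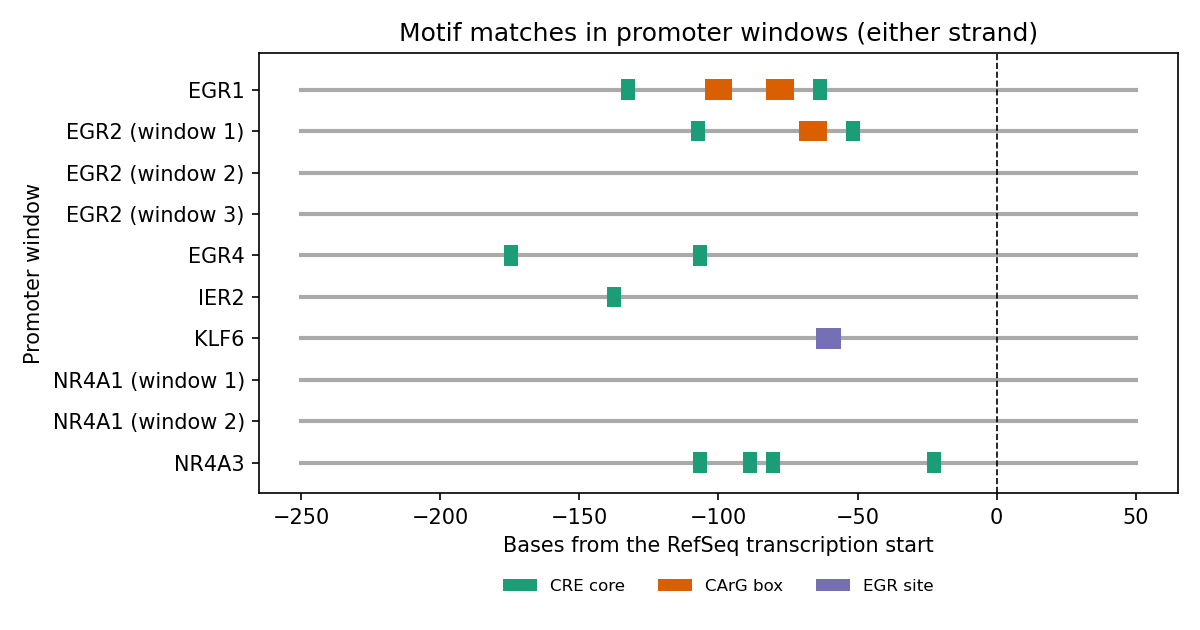
Positions of motif matches in the 10 promoter windows of 7 members, drawn as bases from the RefSeq transcription start (dashed line); grey lines are the windows and colored blocks the matches on either strand. EGR1 carries 2 CArG boxes and NR4A3 carries 4 CRE cores, while both NR4A1 windows are empty.

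Of the 10 members, 8 passed the abundance filter and were tested among 17576 genes. EGR4 and EGR2 did not, 7 members passed in all 9 libraries, and EGR3 reached the filter level in 1 empty vector, 3 CIC::DUX4 and 3 CIC::NUTM1 libraries. With CIC::NUTM1, 6 members (NR4A3, NR4A1, EGR1, NR4A2, IER2 and KLF6) were higher than in empty vector (edgeR quasi-likelihood test, Benjamini-Hochberg adjusted p under 0.05 over all tested genes), where 11.5% of tested genes were called higher, 3.83% lower and 15.3% either way. With CIC::DUX4, 2 members (NR4A3 and NR4A1) were called higher, where 6.96% of tested genes were, 1.27% were lower and 8.24% were called either way. Directly compared, NR4A3, NR4A1, NR4A2, EGR1 and IER2 (5 members) had higher levels under CIC::NUTM1 than under CIC::DUX4, where 4.97% of tested genes were called higher, 1.64% lower and 6.61% either way. None was called lower in any comparison by the edgeR fit of all 9 libraries, with IER3 the single member at a negative value and an unadjusted p under 0.05 (0.0157, with CIC::DUX4). Libraries did not overlap, with the first group higher, for 3 tested members under CIC::DUX4, 6 under CIC::NUTM1 and 6 in the comparison of the fusions, against 14.8%, 18.2% and 12.6% of tested genes. In the lower direction the counts were 1, 0 and 0 against 11.0%, 12.9% and 9.36%. The median log2 fold change of the 8 tested members was 0.13 for CIC::DUX4 and 0.90 (0.899) for CIC::NUTM1 against empty vector, and 0.80 (0.804) for one fusion against the other, against medians of -0.0015, -0.00086 and -0.0053 over all tested genes. Both comparisons with empty vector share the same 3 control libraries.

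**Figure D2:**
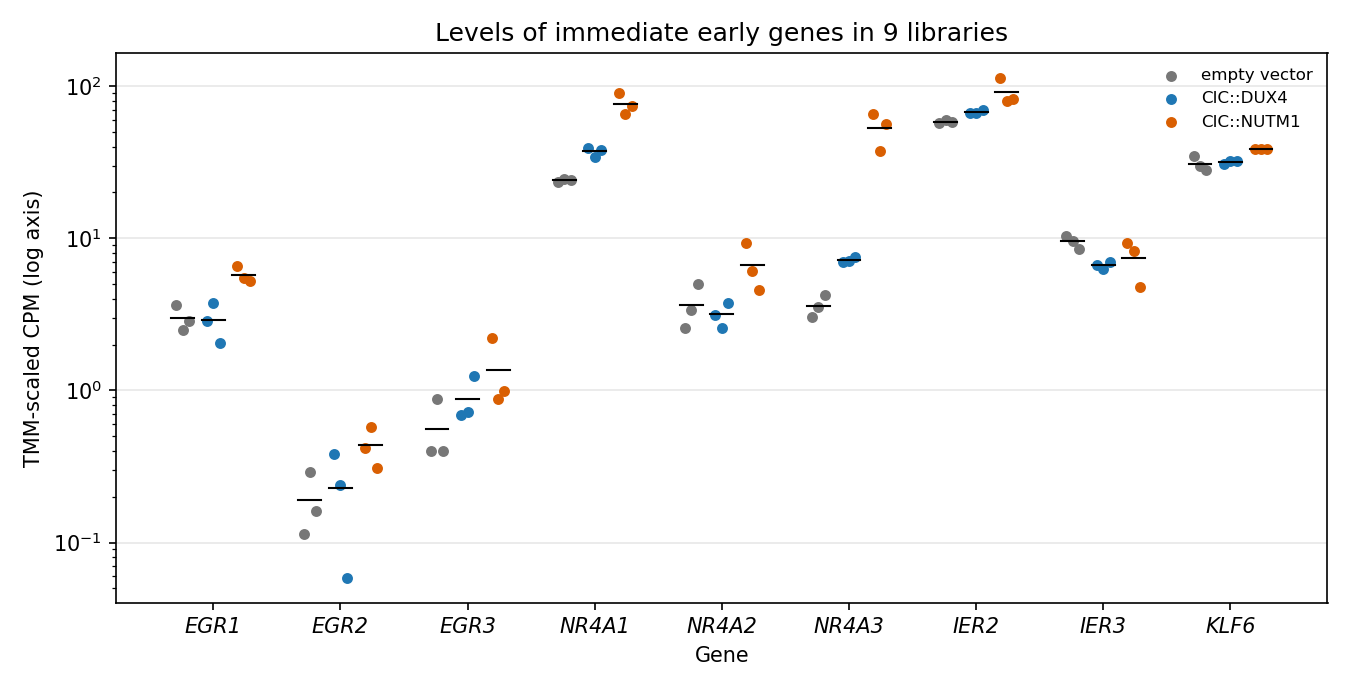
TMM-scaled CPM (log axis) of the 9 members with any counts, each point a library and each bar the mean of 3 libraries of a group; EGR4 had no counts and is not drawn. The CIC::NUTM1 points of NR4A3 (37.2 to 65.9 CPM) lie above all others of that gene.

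The NR4A receptors bind DNA as monomers or dimers, and NR4A1 and NR4A2 also with RXR. They need no known hormone, so their activity depends in part on their amount. NR4A3 (ENSG00000119508, chromosome 9, 99821855 to 99866891, plus strand, GRCh38 with GENCODE 29) changed most. Its level in empty vector replicates 1, 2 and 3 was 3.03, 3.54 and 4.21 CPM. CIC::DUX4 libraries held 6.94, 7.09 and 7.47 CPM. CIC::NUTM1 libraries held 65.9, 37.2 and 56.3 CPM. The 3 groups did not overlap, and even the lowest CIC::NUTM1 library lay well above the highest CIC::DUX4 one. By mean CPM, NR4A3 was 14.8-fold higher with CIC::NUTM1 and 1.99-fold higher with CIC::DUX4 than in empty vector. Its log2 fold changes were 3.87 ± 0.19 (SE; edgeR adjusted p = 9.47e-12) and 0.98 ± 0.20 (0.979 ± 0.199; edgeR adjusted p = 0.00219). Between the fusions it differed 7.41-fold (log2 2.89 ± 0.17, edgeR adjusted p = 1.58e-09), the log2 difference ranking 19 from the top among 17576 tested genes. All 3 calls were kept in each refit that left out 1 library.

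NR4A1 (ENSG00000123358, chromosome 12, 52022832 to 52059507, plus strand), also known as NUR77, followed the same order of groups with smaller steps. Empty vector replicates held 23.3, 24.4 and 24.2 CPM. With CIC::DUX4 the values were 39.3, 34.3 and 38.1 CPM, and with CIC::NUTM1 90.2, 65.9 and 73.8 CPM. No group overlapped another, and the spread was narrowest in empty vector. The log2 fold changes were 0.63 ± 0.10 with CIC::DUX4 (0.635 ± 0.104; edgeR adjusted p = 0.000111) and 1.67 ± 0.10 with CIC::NUTM1 (1.67 ± 0.103; edgeR adjusted p = 1.82e-11). The fusions differed by 1.04 ± 0.10 (1.04 ± 0.101; edgeR adjusted p = 1.07e-07), and leaving out any 1 library kept all 3 calls.

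NR4A2 (ENSG00000153234, chromosome 2, 156324432 to 156342348, minus strand), known for its role in dopamine neurons, was at a low level. Its values were 2.57, 3.4 and 5.01 CPM in empty vector. CIC::DUX4 libraries held 3.13, 2.59 and 3.76 CPM and those of CIC::NUTM1 9.36, 6.05 and 4.56 CPM. The CIC::NUTM1 libraries all lay above those of CIC::DUX4 but overlapped empty vector. It was called higher with CIC::NUTM1 than in empty vector (log2 0.84 ± 0.27, edgeR adjusted p = 0.035) and than with CIC::DUX4 (1.07 ± 0.28, edgeR adjusted p = 0.0169). The first call was lost without empty vector replicate 1 or 2 or CIC::NUTM1 replicate 1 (edgeR adjusted p = 0.161, 0.119 and 0.278). The second was lost without CIC::NUTM1 replicate 1 or CIC::DUX4 replicate 1 or 2 (edgeR adjusted p = 0.142, 0.0621 and 0.099). CIC::DUX4 against empty vector gave -0.23 ± 0.28 (-0.229 ± 0.282; edgeR adjusted p = 0.733).

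NR4A3 took a larger part of the NR4A family with CIC::NUTM1. Levels between genes were compared as CPM per kb of GENCODE 29 exon sequence, where genes with several transcript forms, such as NR4A1, are understated because all exons count toward the length. The 3 genes together summed to 4.78 ± 0.456 CPM per kb in empty vector, 7.04 ± 0.486 with CIC::DUX4 and 20.6 ± 4.37 with CIC::NUTM1 (SD, n = 3). NR4A3 made up 11.9 ± 0.813% of that sum in empty vector, 16.2 ± 1.12% with CIC::DUX4 and 40.5 ± 4.25% with CIC::NUTM1. NR4A1 went from 69.1 ± 5.45% and 72.6 ± 1.52% to 51.4 ± 3.07%, and remained the largest part in each library. NR4A2 took 19.0 ± 4.64%, 11.3 ± 1.46% and 8.11 ± 2.09%. The lowest NR4A3 share with CIC::NUTM1, 35.9%, exceeded the highest of the other groups, 17.3%.

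**Figure D3:**
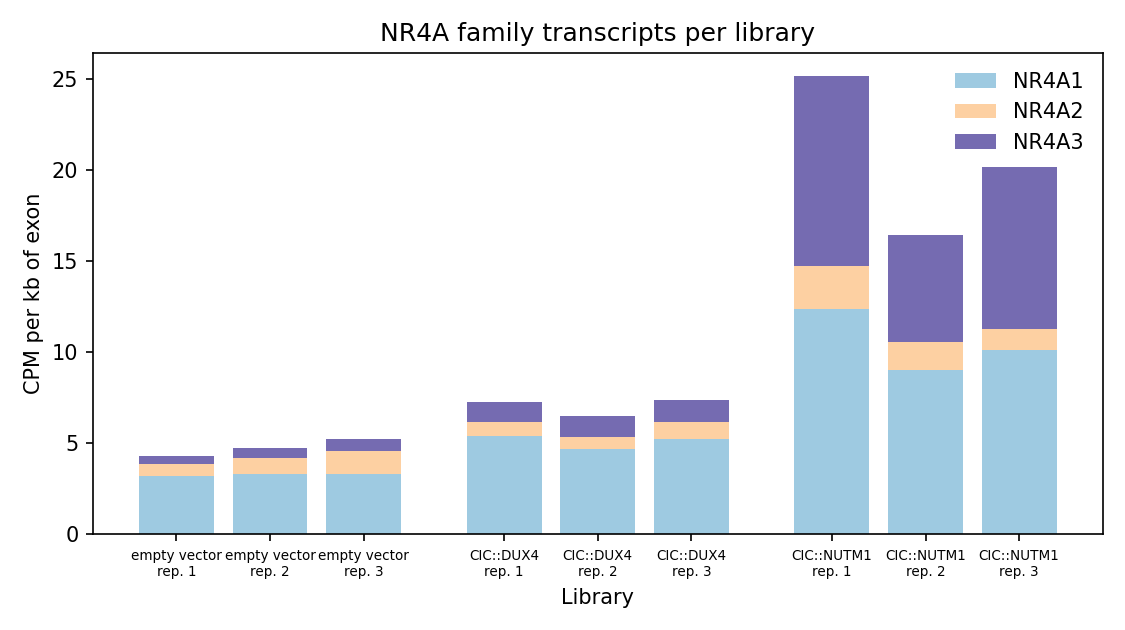
Stacked level of NR4A1, NR4A2 and NR4A3 in CPM per kb of exon for each of the 9 libraries, from 0. The NR4A3 part is 35.9% to 44.2% of the stack in CIC::NUTM1 libraries and 11.1% to 17.3% in all others.

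EGR proteins bind a GC-rich site and induce, among others, their own corepressor NAB2. EGR1 (ENSG00000120738, chromosome 5, 138465490 to 138469315, plus strand), whose promoter with 2 CArG boxes is printed above, was at 3.66, 2.49 and 2.85 CPM in empty vector. The values were 2.86, 3.74 and 2.06 CPM with CIC::DUX4 and 6.54, 5.51 and 5.23 CPM with CIC::NUTM1. All CIC::NUTM1 libraries lay above all 6 others, whereas the empty vector and CIC::DUX4 libraries overlapped. EGR1 was 1.92-fold higher with CIC::NUTM1 than in empty vector (log2 0.95 ± 0.25, edgeR adjusted p = 0.00977) and 2.00-fold higher than with CIC::DUX4 (log2 0.98 ± 0.26, edgeR adjusted p = 0.0169). The first call was lost without empty vector replicate 2 or CIC::NUTM1 replicate 1 (edgeR adjusted p = 0.0612 and 0.0502), and the second without CIC::NUTM1 replicate 1 or CIC::DUX4 replicate 1 or 3 (edgeR adjusted p = 0.0723, 0.0597 and 0.0975). CIC::DUX4 against empty vector gave -0.030 ± 0.26 (-0.0297 ± 0.262; edgeR adjusted p = 0.973), a value whose sign changed in 2 of the 6 refits.

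EGR3 (ENSG00000179388), an EGR paralog of muscle spindle and T cell biology, had 7, 30 and 10 counts in empty vector (0.401, 0.878 and 0.401 CPM). CIC::DUX4 libraries had 18, 15 and 21 counts (0.687, 0.719 and 1.24 CPM) and CIC::NUTM1 libraries 37, 23 and 19 counts (2.22, 0.880 and 0.984 CPM). All CIC::NUTM1 values exceeded those of empty vector, the closest by a small margin, but the change did not pass the test (log2 1.21 ± 0.53, edgeR adjusted p = 0.137). With CIC::DUX4 the log2 value was 0.58 ± 0.54 (edgeR adjusted p = 0.628), and between the fusions 0.62 ± 0.52 (edgeR adjusted p = 0.59). A missed threshold at these low counts does not show that the groups are alike.

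EGR2 (ENSG00000122877), which drives myelination in Schwann cells, was below the abundance filter. Its counts were 2, 10 and 4 in empty vector, 10, 5 and 1 with CIC::DUX4, and 7, 15 and 6 with CIC::NUTM1. As CPM the means were 0.189 ± 0.0926, 0.227 ± 0.162 and 0.435 ± 0.132 (SD, n = 3). CIC::NUTM1 libraries lay above those of empty vector (0.311 to 0.574 against 0.114 to 0.293 CPM; two-sided exact permutation p = 0.1, the smallest that 3 against 3 can give). They overlapped CIC::DUX4 (exact permutation p = 0.2), as CIC::DUX4 overlapped empty vector (exact permutation p = 0.8). EGR4 (ENSG00000135625) had 0 counts in all 9 libraries, which allows up to 3 counts, or 0.0891 to 0.177 CPM by library, for counting error only. Its promoter window held 2 CRE cores, at -177 to -173 and -109 to -105. In CPM per kb, EGR1 made up 84.7 ± 8.35%, 78.2 ± 7.03% and 82.6 ± 3.60% of the EGR family in empty vector, CIC::DUX4 and CIC::NUTM1 (SD, n = 3).

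IER2 (ENSG00000160888, chromosome 19, 13150415 to 13154908, plus strand), a nuclear protein linked to cell motility, had the highest level per kb of the 10 members in every group. It was at 57.5, 59.8 and 58.0 CPM in the empty vector replicates. For CIC::DUX4 the levels were 66.4, 66.9 and 69.98 CPM, and for CIC::NUTM1 113, 80.3 and 81.6 CPM. The 3 groups did not overlap, and the CIC::NUTM1 mean was pulled up by replicate 1. The log2 fold change was 0.64 ± 0.10 (0.645 ± 0.0995) with CIC::NUTM1 against empty vector (edgeR adjusted p = 4.76e-05) and 0.43 ± 0.10 (0.433 ± 0.0993) against CIC::DUX4 (edgeR adjusted p = 0.00778). The latter was 0.26 without CIC::NUTM1 replicate 1 (0.257; edgeR adjusted p = 0.0511). With CIC::DUX4 against empty vector, 0.21 ± 0.10 (0.212 ± 0.0999) did not pass the test (edgeR adjusted p = 0.248).

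IER3 (ENSG00000137331, chromosome 6, 30743199 to 30744554, minus strand), which modulates NF-kappaB and ERK signalling and cell survival, was the tested member with negative log2 values for both fusions against empty vector. Empty vector libraries held 10.4, 9.63 and 8.50 CPM, CIC::DUX4 libraries 6.71, 6.23 and 6.94 CPM, and CIC::NUTM1 libraries 9.30, 8.19 and 4.77 CPM. CIC::DUX4 did not overlap empty vector, and CIC::NUTM1 overlapped both. Neither difference from empty vector passed the test: -0.52 ± 0.20 with CIC::DUX4 (-0.519; edgeR adjusted p = 0.129) and -0.36 ± 0.20 with CIC::NUTM1 (-0.357 ± 0.199; edgeR adjusted p = 0.261). A fit of only the 2 groups called it lower with CIC::DUX4 (edgeR adjusted p = 0.0446). Between the fusions the log2 value was 0.16 ± 0.20 (edgeR adjusted p = 0.755).

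KLF6 (ENSG00000067082, chromosome 10, 3775996 to 3785281, minus strand), a zinc finger factor described as a tumor suppressor, moved least among the members called with CIC::NUTM1. It was at 34.7, 29.9 and 28.1 CPM in the empty vector libraries. Replicates with CIC::DUX4 held 30.6, 32.4 and 32.2 CPM and those with CIC::NUTM1 38.6, 38.8 and 38.3 CPM. The CIC::NUTM1 libraries were nearly equal and all above the other 6. Its log2 fold change against empty vector was 0.32 ± 0.096 (0.324 ± 0.0956; edgeR adjusted p = 0.0208), lost without empty vector replicate 2 or 3 or CIC::NUTM1 replicate 3 (edgeR adjusted p = 0.0836, 0.143 and 0.0669). Against CIC::DUX4 it was 0.28 ± 0.096 (0.281; edgeR adjusted p = 0.0854), and CIC::DUX4 against empty vector gave 0.042 ± 0.096 (0.0424 ± 0.0962; edgeR adjusted p = 0.875).

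**Figure D4:**
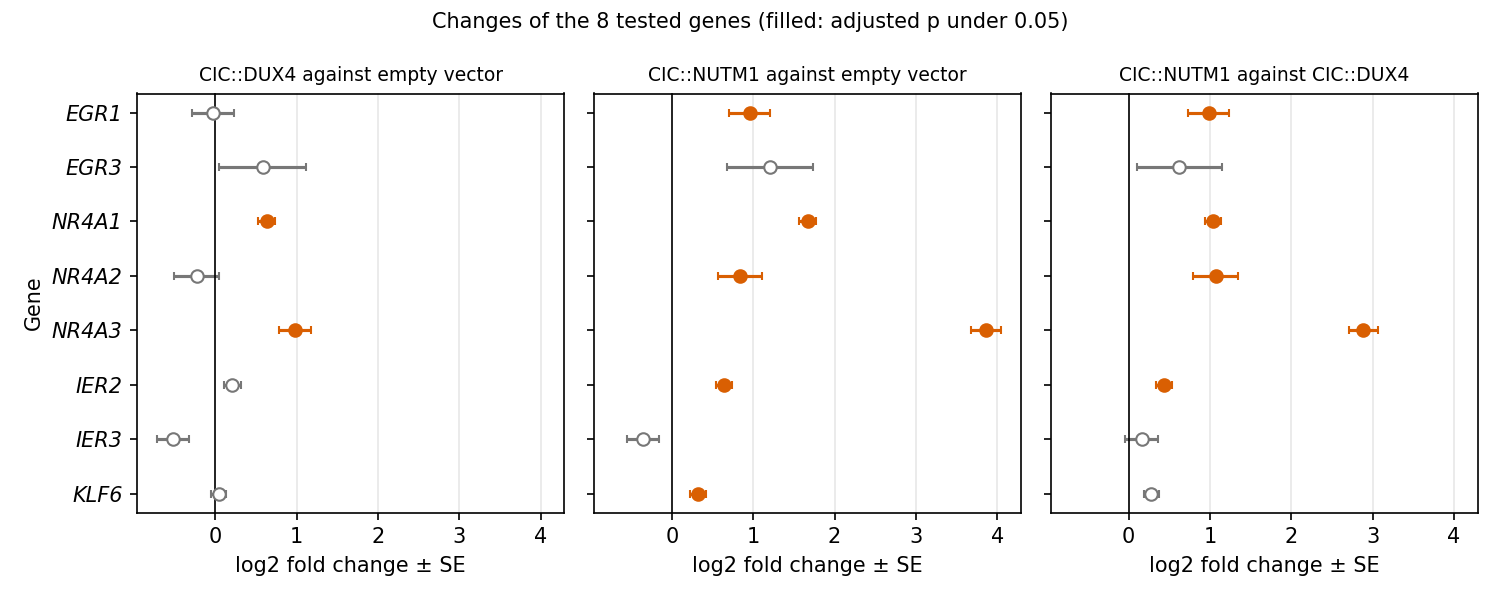
Log2 fold change with its SE for the 8 tested members in the 3 comparisons; filled points passed an edgeR adjusted p under 0.05. NR4A3 stands farthest from 0 in each panel, and IER3 lies left of 0 in both comparisons with empty vector.

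Placed in order by CPM per kb, the empty vector libraries had IER2 at 19.0 ± 0.397, IER3 at 7.02 ± 0.712, KLF6 at 5.03 ± 0.552 and NR4A1 at 3.29 ± 0.0752 (SD, n = 3). EGR1, NR4A2 and NR4A3 followed at 0.956 ± 0.192, 0.923 ± 0.312 and 0.569 ± 0.0933, of which EGR1 and NR4A2 did not differ beyond their spread. With CIC::DUX4, KLF6 (5.17 ± 0.158), NR4A1 (5.11 ± 0.359) and IER3 (4.89 ± 0.268) were within their spread of each other, and NR4A3 was at 1.14 ± 0.0430. With CIC::NUTM1, NR4A1 (10.5 ± 1.71) and NR4A3 (8.42 ± 2.31) came next after IER2 (29.8 ± 6.02), and these 2 receptors were within their spread of each other. KLF6 (6.28 ± 0.0402) and IER3 (5.47 ± 1.74) followed. NR4A3 thus had rank 7 among the 10 members in empty vector, 5 with CIC::DUX4 and 3 with CIC::NUTM1.

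Most members were highest in the same CIC::NUTM1 library. Replicate 1 was the highest of its group for 7 of the 8 tested members, all but KLF6, with log2 deviations from the group mean of 0.19 for EGR1, 0.25 for NR4A1, 0.35 for NR4A3 and 0.55 for NR4A2. For IER2 the range over the 3 libraries was 0.49 on the log2 scale with CIC::NUTM1, against 0.057 in empty vector and 0.076 with CIC::DUX4. NR4A1 ranged over 0.45 with CIC::NUTM1 against 0.063 and 0.20 (0.197). In the other groups, CIC::DUX4 replicate 3 was the highest for 5 of the 8, and no empty vector library was the highest for more than 3. Without CIC::NUTM1 replicate 1, NR4A1 and NR4A3 kept their calls against CIC::DUX4, and EGR1, NR4A2 and IER2 lost theirs. Against empty vector, 4 members were called higher in that refit, where 1770 of 18594 tested genes were called higher and 444 lower. With all 9 libraries, 6 members were called higher there, where 2018 of 17576 tested genes were called higher and 673 lower. That library had 17123926 counts, the fewest of its group, and a mitochondrial share of 1.77%, between those of the other CIC::NUTM1 libraries (1.91% and 1.30%, 1.298). The part of depth in its higher values was not tested.

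**Figure D5:**
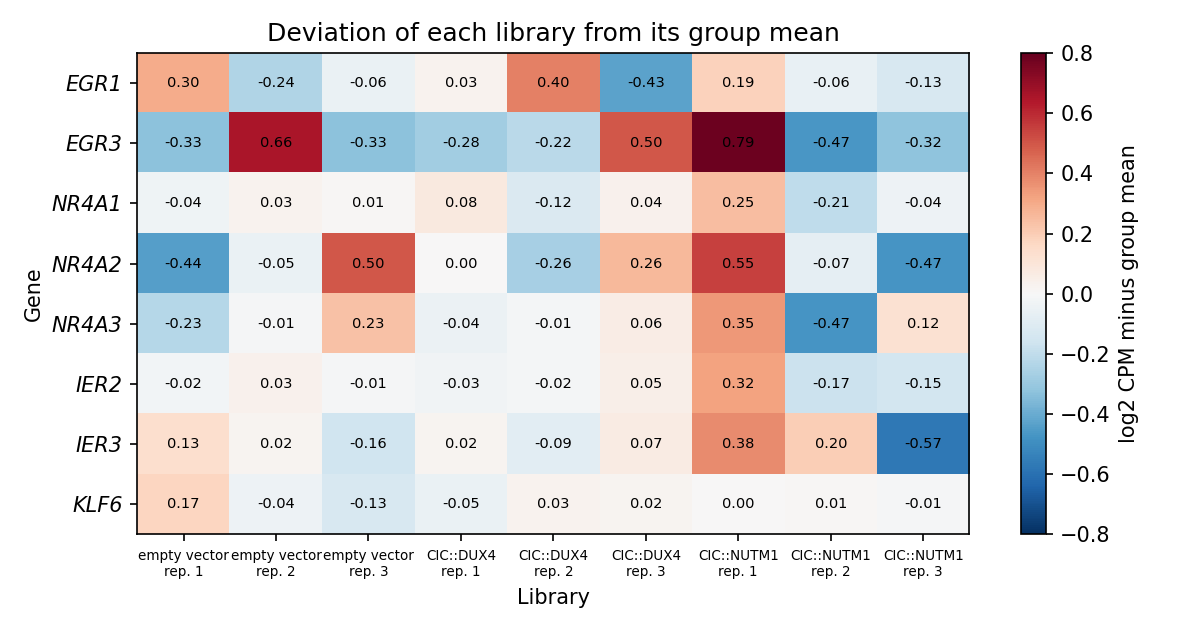
Log2 CPM of each tested member minus its group mean, by library; red is above and blue below the mean, and each cell prints its value. The column of CIC::NUTM1 replicate 1 is above 0 for all 8 genes, least for KLF6.

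Of 12 upstream genes for SRF, the ELK and MRTF cofactors, CREB, ATF1, CREM and the CRTC coactivators, all tested, 1 was called higher with each fusion and 0 between the fusions (edgeR; medians of -0.0030, 0.0014 and -0.017). Called higher over all tested genes were 6.96%, 11.5% and 4.97%. The gene was MRTFA, an actin-regulated SRF coactivator, at 59.4 ± 2.7 CPM in empty vector, 86.6 ± 4.25 with CIC::DUX4 and 85.4 ± 3.63 with CIC::NUTM1 (SD, n = 3; log2 0.54 ± 0.074 and 0.52 ± 0.074, edgeR adjusted p = 9.19e-06 and 9.35e-06). SRF itself was at 123 ± 7.43, 116 ± 2.64 and 125 ± 7.04 CPM.

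Among 7 genes for receptor partners, EGR corepressors and mRNA decay factors, 1 was higher under CIC::DUX4 and 3 under CIC::NUTM1, and 1 differed between the fusions (medians of -0.010, 0.045 and 0.21). The shares called higher over all tested genes were 6.96%, 11.5% and 4.97%. RXRG, a retinoid X receptor of the class that pairs with NR4A1 and NR4A2, rose from 5.15 ± 0.879 CPM to 20.6 ± 3.38 with CIC::DUX4 and 24.0 ± 4.51 with CIC::NUTM1 (SD, n = 3; edgeR adjusted p = 5.4e-09 and 5.5e-10). RXRA was called higher with CIC::NUTM1 (log2 0.24 ± 0.081, edgeR adjusted p = 0.0456). ZFP36L2, which binds AU-rich elements and speeds transcript decay, rose with CIC::NUTM1 by 0.45 ± 0.078 (0.455; edgeR adjusted p = 0.000114) and was higher there than with CIC::DUX4 (0.46 ± 0.078, edgeR adjusted p = 0.000281). NAB2, the EGR corepressor and target, was at 20.5 ± 1.95, 17.2 ± 3.34 and 16.8 ± 2.00 CPM in empty vector, CIC::DUX4 and CIC::NUTM1 and was called in none of the 3 comparisons.

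Genes described as EGR1 targets did not move one way. Of 10, 9 were tested (NAB2 is shared with the previous list): 0 were higher and 1 lower with CIC::DUX4, 3 higher and 1 lower with CIC::NUTM1, and 2 were higher in the direct comparison of CIC::NUTM1 with CIC::DUX4 (edgeR; medians of -0.022, 0.066 and 0.053). All tested genes gave 6.96% higher and 1.27% lower, 11.5% and 3.83%, and 4.97% and 1.64%. PDGFA, a platelet-derived growth factor chain, rose from 2.67 ± 0.629 to 14.6 ± 5.70 CPM with CIC::NUTM1 (SD, n = 3; edgeR adjusted p = 3.29e-06), with 4.63 ± 1.47 CPM with CIC::DUX4. TGFB1, a transforming growth factor, fell by 0.36 on the log2 scale with CIC::NUTM1 (edgeR adjusted p = 0.0113). FN1, encoding fibronectin, was the gene lower with CIC::DUX4 (-0.37 ± 0.11, -0.368; edgeR adjusted p = 0.0385).

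Of 12 KLF paralogs of KLF6, all tested, 1 was higher and 1 lower with CIC::DUX4, 4 higher and 1 lower with CIC::NUTM1, and 2 higher under CIC::NUTM1 than under CIC::DUX4 (medians of 0.086, 0.29 and 0.091). For all tested genes the shares higher and lower were 6.96% and 1.27%, 11.5% and 3.83%, and 4.97% and 1.64%. KLF13 was lower with both fusions (log2 -0.43 and -0.49, edgeR adjusted p = 0.00247 and 0.000341). KLF4 was higher with both (0.61 and 0.71, edgeR adjusted p = 0.00831 and 0.00113), and KLF9 with CIC::NUTM1 (0.52 ± 0.082, edgeR adjusted p = 3.7e-05). KLF11 was higher under CIC::NUTM1 than under CIC::DUX4 (0.67 ± 0.10, 0.669 ± 0.104; edgeR adjusted p = 0.000109). KLF2, KLF4 and KLF10 stand in this list and in the next.

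Beyond the 10 members, 22 further immediate early genes were listed and 21 tested. Of these, 9 were called higher under CIC::DUX4 and 12 under CIC::NUTM1, and 2 differed between the fusions, with medians of 0.29 (0.286), 0.49 and 0.13 on the log2 scale. In the same comparisons, 6.96%, 11.5% and 4.97% of all tested genes were called higher. SGK1, a serum and glucocorticoid induced kinase, went from 3.95 ± 0.461 CPM to 24.2 ± 4.36 with CIC::DUX4 and 31.7 ± 8.55 with CIC::NUTM1 (SD, n = 3; edgeR adjusted p = 5.47e-08 and 5.32e-09). ATF3 and CCN1 rose with both fusions too, and CCN2 and GADD45B were the genes called between the fusions. Of 6 AP-1 and DUSP genes, FOS and FOSB were higher with both fusions, and these and DUSP1 were also higher under CIC::NUTM1 than under CIC::DUX4. FOSB was at 2.99 ± 0.442, 12.2 ± 1.59 and 24.7 ± 5.80 CPM in empty vector, CIC::DUX4 and CIC::NUTM1.

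Genes with the most similar pattern were sought by the Euclidean distance between group means of log2 CPM, centred over the 3 groups (3 libraries each), among 14818 other tested genes with a mean of at least 1 CPM. For EGR1 the 3 closest were BCL11A, DLX1 and SLK, at distances of 0.010, 0.015 and 0.023. SLK, a serine/threonine kinase, was at 146 ± 8.38, 139 ± 6.65 and 275 ± 22.7 CPM in empty vector, CIC::DUX4 and CIC::NUTM1 (SD, n = 3). NR4A1 lay closest to ENSG00000289109, TSC22D2 and LINC00461 (0.047, 0.051 and 0.061). TSC22D2 was at 56.3 ± 2.30, 84.8 ± 7.26 and 183 ± 29.8 CPM. For IER2 they were RASA4B, OSBPL8 and SMURF2 (0.0086, 0.013 and 0.016). Some of these matches were at low levels with wide spread. In the same order of groups, RASA4B was at 1.12 ± 0.590, 1.19 ± 0.216 and 1.64 ± 0.477 CPM. ENSG00000289109 was at 0.560 ± 0.327, 0.896 ± 0.408 and 1.97 ± 1.06 CPM. The distance between means does not take such spread into account.

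No neighbor of NR4A3 was called in any comparison. The 2 nearest tested genes on each side in GENCODE 29 were ALG2, SEC61B, STX17-DT and STX17, with starts 84.7 to 599.9 kb away. Their log2 fold changes with CIC::NUTM1 against empty vector lay between -0.026 and 0.53 and none passed the test (edgeR, adjusted p of 0.643 to 0.99). STX17-DT, the one at 0.53, had a mean of 0.482 CPM. The 4 neighbors of NR4A1 were not called in any comparison, and the 4 of EGR1 were not called with CIC::NUTM1 against empty vector. KDM3B, a neighbor of EGR1, was called higher with CIC::DUX4 than in empty vector (log2 0.35, edgeR adjusted p = 0.000917). It was called lower under CIC::NUTM1 than under CIC::DUX4 (log2 -0.23, edgeR adjusted p = 0.0395). Over the 40 neighbors of the 10 members, 8 were called higher and 2 lower with CIC::NUTM1, and 3 higher and 2 lower with CIC::DUX4, against 11.5% higher and 3.83% lower, and 6.96% and 1.27%, of all tested genes. Overlapping genes on the other strand in GENCODE 29 exist for 4 members, and the use of strand in counting is not given in the sources used here, so their counts carry that uncertainty. The antisense gene in IER3, IER3-AS1, held 553 counts over the 9 libraries, that in IER2 (ENSG00000267598) 480, that in NR4A1 41 and that in EGR3 2.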

How the data were processed

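Values deposited by the authors were raw counts by Ensembl gene, and a second table held log2 CPM by symbol. Per the submitters' processing notes, STAR 2.7.10b, R 4.2.2, edgeR 3.40.2 and the GRCh38 build were used. The counting program, annotation and strand setting are not given in the sources used here. Both tables name libraries by the names in the labels. Symbols matched 62622 of 62700 IDs. Counts were tested with edgeR 4.0.16 (R 4.3.3): filterByExpr kept 17576 genes, TMM scaled the libraries, and a robust quasi-likelihood fit with 1 mean per group used all 9 libraries. A call means an adjusted p (Benjamini-Hochberg) below 0.05. SEs were taken from the fold change and the root of its F statistic. The pipeline was tested on simulated data. Of 15719 matched genes, log2 CPM from the counts differed from the deposited log2 values by a median of 0.00906.

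Alternatives were other scalings, filters, DESeq2 1.42.0, limma 3.58.1 on the deposited log2 CPM, a fit to only the pair of groups, a block for the replicate number, leaving out single libraries, and a log2 change of 1 as a minimum. Members and lists were chosen with earlier results of these data known. All members are named. List genes are named where called, up to 3 per list and comparison by smallest adjusted p, with a few levels added as reference (SRF, NAB2); 1 list gene that the rule names is not reported here. Libraries of a group differed by more than counting noise (chi-square per degree of freedom 5.73 to 9.71). The labels give separate transfection days for replicates of 1 cell line. Depth sets precision through the counts printed; floors cover counting error only. Figures used matplotlib 3.10.9.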

Additional observations from a re-analysis of the deposited data

How the results depend on the processing

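The members called higher numbered 2 for CIC::DUX4 against empty vector, 6 for CIC::NUTM1 and 5 for the fusions against each other under each scaling, each filter, DESeq2 and limma-trend. A fit of only the 2 groups called the same numbers higher, and 1 member, IER3, lower with CIC::DUX4, so that 3 were called there in either direction. A minimum log2 change of 1 left 0, 2 and 3 members (edgeR; 4, 7 and 6 of the 8 had an unadjusted p under 0.05) and 673, 865 and 240 of all genes, against 1448, 2691 and 1162. At least 10 counts in every library left 961 genes called with CIC::DUX4. Library totals or upper quartile factors moved the share of called genes that were higher with CIC::NUTM1 from 75.0% to 61.0% (61.04) and 61.7%, and library totals moved that between the fusions from 75.2% to 61.4%. Leaving out 1 library gave 2 to 2, 3 to 6 and 2 to 5 members, and 865 to 1487, 1920 to 3111 and 690 to 1264 genes. The 3 members called with CIC::NUTM1 came without empty vector replicate 2, and the 2 and 3 between the fusions without CIC::NUTM1 replicate 1 and CIC::DUX4 replicate 1. The lowest gene counts came without CIC::DUX4 replicate 1, empty vector replicate 3 and CIC::NUTM1 replicate 3. The cause was not tested.

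Signs changed only for values near 0 or not called. With CIC::DUX4 and 1 library left out, EGR1 ran from -0.25 (-0.254) to 0.15 (0.148), above 0 without empty vector replicate 1 (0.124) or CIC::DUX4 replicate 3. NR4A2 ran from -0.41 to 0.055 and KLF6 from -0.022 to 0.13 (0.126), both turning without empty vector replicate 3. Between the fusions IER3 ran from -0.018, without CIC::NUTM1 replicate 1, to 0.38. With the replicate block, 2, 6 and 5 members and 1472, 2739 and 1201 genes were called. Deviations of libraries with the same replicate number correlated between -0.031 and 0.075, others between -0.11 (-0.108) and 0.070, and 2 of 9 libraries lay closest to their own number in both other groups. The labels do not say whether a number marks a shared transfection day, and correlations this near 0 cannot decide it. EGR2 and EGR3 rest on few counts.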

Other observations

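A search for genes with the pattern of NR4A3 was added after its values were seen. The 3 closest by the same distance were RGS4, ONECUT3 and CALCR, at 0.20 (0.196), 0.30 (0.296) and 0.41. RGS4, a regulator of G protein signalling, had means of 0.985 ± 0.128, 2.26 ± 0.408 and 14.0 ± 3.72 CPM for empty vector, CIC::DUX4 and CIC::NUTM1 (SD, n = 3). NR4A3 had no neighbor in pattern as close as the 0.023 within which all 3 of EGR1 lay, and neither had NR4A1 (closest 0.047). The distance was not scaled to the size of the change, which was largest for NR4A3.

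CACNA1A, a calcium channel gene among the neighbors on the chromosome, starts 482.6 kb from IER2 and was singled out after its values were seen. It had a log2 fold change of 5.28 with CIC::NUTM1 against empty vector (edgeR adjusted p = 0.00147). It was not called with CIC::DUX4 against empty vector (2.76, edgeR adjusted p = 0.168) or between the fusions (2.51, edgeR adjusted p = 0.0702). Its mean over all libraries was 1.23 CPM, so at these fold changes its empty vector level lay below the abundance filter. It was thus tested through the fusion libraries, and against empty vector a call higher was nearly the only one open. STX10, which starts beside IER2 on the other side, had 0.14 with CIC::NUTM1 against empty vector (edgeR adjusted p = 0.272).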
